A study of Mus musculus with 8 samples.

Results

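The kinases that carry mitogen-activated protein kinase (MAPK) signalling outside the ERK5 route were followed in 4T1 cells, a metastatic breast cancer line derived from a mouse mammary tumour, after knockdown of ERK5 or MEK5. Members were chosen by name: 31 genes encoding kinases of the ERK1/2, JNK and p38 cascades and the atypical MAPKs, each found by its Entrez Gene number among the 24454 genes listed in the files. Not every kinase gene of these cascades was a member. Total RNA was depleted of ribosomal RNA and sequenced in 8 libraries. In the shERK5 group, 3 libraries came from cells with the hairpin titled shERK5-1, which targets murine ERK5. In the shMEK5 group, 2 libraries came from cells with the hairpin titled shMEK5-2, which targets murine MEK5. In the shCTRL group, 3 libraries came from cells with a non-targeting hairpin vector. All cells were therefore infected with lentivirus and selected with puromycin, controls included. There was 1 hairpin per target, so effects of a hairpin on other transcripts cannot be told apart from those of losing its target. The series asks which genes follow MEK5-ERK5 signalling in the epithelial-mesenchymal transition of breast cancer cells.

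A MAPK cascade is a chain in which a MAP kinase kinase kinase (MAP3K) phosphorylates a MAP kinase kinase (MAP2K), which in turn phosphorylates a MAPK on its activation loop. The ERK1/2 chain mainly answers growth factors, whereas the JNK and p38 chains mainly answer stress and cytokines. Some MAP3Ks of the stress group, but not all, feed both JNK and p38. Activity in these chains is set by phosphorylation, which was not measured; the values here are transcript levels. By role, the 31 members were divided into 6 genes of the ERK1/2 arm, 10 MAP3K genes assigned here to stress signalling, 5 genes of the JNK arm, 6 genes of the p38 arm and 4 atypical MAPK genes.

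The arms can be told apart in the coding sequence of the MAPKs themselves. The stretches below are shown because they hold the codons of the activation loop by which the families are defined. Each is 45 bases of GENCODE M21 transcript sequence (GRCm38), 5′ to 3′ on the mRNA strand, with the 9 bases of the activating motif in capitals. The capitals encode threonine, a middle residue and tyrosine in the first 7 genes. The middle residue is glutamate in the ERK1 gene Mapk3, proline in both JNK genes and glycine in all 4 p38 genes. Mapk6 encodes serine, glutamate and glycine there, and Nlk encodes threonine, glutamine and glutamate, so that neither holds the tyrosine of the conventional MAPKs.
Mapk3: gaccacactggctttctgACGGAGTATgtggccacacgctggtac
Mapk8: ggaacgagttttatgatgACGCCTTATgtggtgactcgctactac
Mapk9: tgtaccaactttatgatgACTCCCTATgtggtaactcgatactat
Mapk14: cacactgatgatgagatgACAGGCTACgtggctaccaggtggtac
Mapk11: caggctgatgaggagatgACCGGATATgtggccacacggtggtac
Mapk12: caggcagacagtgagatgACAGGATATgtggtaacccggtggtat
Mapk13: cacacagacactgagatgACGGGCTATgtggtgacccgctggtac
Mapk6: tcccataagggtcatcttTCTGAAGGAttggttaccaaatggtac
Nlk: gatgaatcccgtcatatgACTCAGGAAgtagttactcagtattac

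Between 41397315 and 53714288 reads per library had been assigned to genes, and levels are given as CPM, the reads of a gene out of each 1000000 of these. Whether replicates were grown as separate cultures is not stated, and p-values therefore reflect the spread between these libraries alone, which may be technical. In bulk RNA, fewer cells with a transcript and less transcript per cell cannot be told apart. The hairpins lowered their targets. Mapk7, which encodes ERK5, averaged 6.53 ± 0.173 CPM in shERK5, 19.5 ± 1.19 CPM in shMEK5 and 26.8 ± 1.61 CPM in shCTRL. Map2k5, which encodes MEK5, averaged 36.7 ± 0.475 CPM in shERK5, 14.2 ± 0.216 CPM in shMEK5 and 36.3 ± 0.997 CPM in shCTRL (SD, n = 3, 2 and 3). All 6 epithelial markers examined were present, with summed levels of 1578 to 1629 CPM in shERK5, 1330 to 1394 CPM in shMEK5 and 1761 to 1949 CPM in shCTRL. The sum is mostly Krt8 and Krt18, which were lower in both knockdowns. Krt18 averaged 774 CPM in shERK5, 731 CPM in shMEK5 and 1111 CPM in shCTRL, and Krt8 averaged 383 CPM in shERK5, 379.7 CPM in shMEK5 and 549 CPM in shCTRL. The other 4 were highest in shERK5. Cdh1 averaged 112 CPM in shERK5, 55.6 CPM in shMEK5 and 37.4 CPM in shCTRL, Epcam 28.4, 14.2 and 13.2 CPM in the same order, Krt19 76.7, 49.2 and 37.2 CPM, and Krt7 229.6, 132 and 136 CPM. Of 6 fibroblast, 6 leukocyte and 4 endothelial markers, Pdgfra alone reached the expression filter; Dcn, Thy1, Cd3e, Adgre1 and Kdr were at 0 in all libraries. The summed fibroblast markers lay between 22.9 and 28.2 CPM in shERK5, 34.4 and 35.9 CPM in shMEK5, and 31.6 and 47.3 CPM in shCTRL. The part of these marker levels in the results was not tested.

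Across the cascades, changes were moderate and went both ways. Of the 31 kinase genes, 27 had at least 1 CPM in all 8 libraries and were tested, and 4 were at or near 0 reads. By limma on log2(CPM + 1), with Benjamini-Hochberg adjustment over 11623 genes and an adjusted p under 0.05 counted as a change, 13 of the 27 changed in shERK5 against shCTRL, 6 upwards and 7 downwards. This is 48.1% of those tested, beside 63.3% of all genes tested, of which 32% rose and 31.3% fell. In shMEK5 against shCTRL, 13 of 27 changed as well, again 6 upwards and 7 downwards, or 48.1% beside 48.7% of all genes, of which 23.1% rose and 25.6% fell. The greatest called change among the 27, that of Map3k5 in shMEK5 at -0.98 on the log2 scale, stayed just short of 2-fold, with a range from -1.05 to -0.88 over the alternatives. Of all genes, 3.6% were called with at least a 2-fold change in shERK5 and 2.73% in shMEK5 against shCTRL, and 1.63% in shERK5 against shMEK5. The libraries of shERK5 and shCTRL did not overlap in 17 of the 27, beside 67.9% of all genes, and those of shMEK5 and shCTRL in 20 of the 27, beside 68.7%. The median log2 fold change of the 27 was 0.03 in shERK5 and -0.01 in shMEK5, beside 0.00 and -0.02 over all genes in those comparisons. Their median absolute log2 fold change was 0.18 in shERK5 and 0.19 in shMEK5, beside 0.25 and 0.20 over all genes. Alternatives included other library scaling factors (RLE and TMM), no expression filter, edgeR and DESeq2 on recovered reads, and leaving out each library in turn; where one of these ended or made a call, it is named beside the gene.

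**Figure D1:**
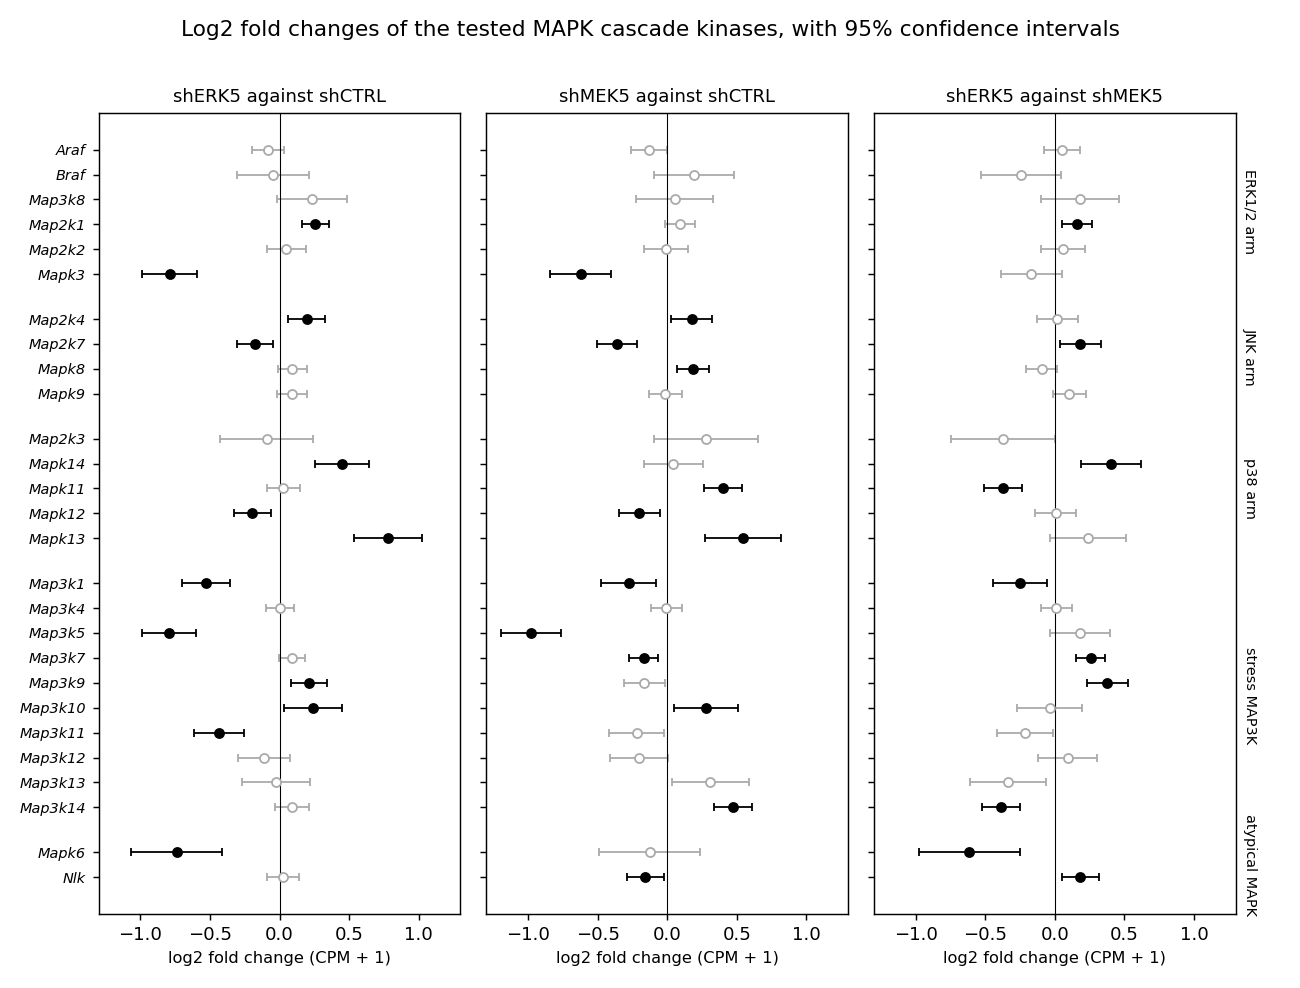
Log2 fold changes on the log2(CPM + 1) scale (horizontal axis) of the 27 tested kinase genes, grouped by arm, in shERK5 against shCTRL, shMEK5 against shCTRL and shERK5 against shMEK5; bars are 95% confidence intervals from limma, filled black points passed an adjusted p of 0.05 and open grey points did not. Called falls reach -0.80 in shERK5 and -0.98 in shMEK5, both for Map3k5, and called rises reach 0.78 and 0.54, both for Mapk13.

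Levels can be set against each other between genes only per length, here as CPM per kb of the union of GENCODE exons. In shCTRL the highest of the 27 were the genes of MEK1 and MEK2, the MAP2Ks of the ERK1/2 arm. Map2k1 was at 74.8 ± 1.77 CPM per kb in shERK5, 66.9 ± 2.44 in shMEK5 and 62.6 ± 1.22 in shCTRL. Map2k2 was at 46.7 ± 2.36 CPM per kb in shERK5, 44.9 ± 3.00 in shMEK5 and 45.1 ± 3.10 in shCTRL. The atypical MAPK gene Mapk6 came next in shCTRL at 36.7 ± 6.95 CPM per kb, within the spread of both from Map2k2, followed by the p38 activator gene Map2k3 at 25.0 ± 3.44. Many genes in the middle of the order lay close together, so that Mapk14 at 17.1 ± 1.66, Mapk12 at 16.9 ± 0.985 and Map3k4 at 16.0 ± 0.32 CPM per kb in shCTRL did not differ beyond their spread. At the low end stood the MAP3K gene Map3k8 at 0.945 ± 0.207 and the gene of the leucine zipper-bearing kinase Map3k13 at 0.211 ± 0.0337 CPM per kb. The annotation behind the deposited values was not given in the sources used here, so these per-length levels rest on an assumed exon length.

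**Figure D2:**
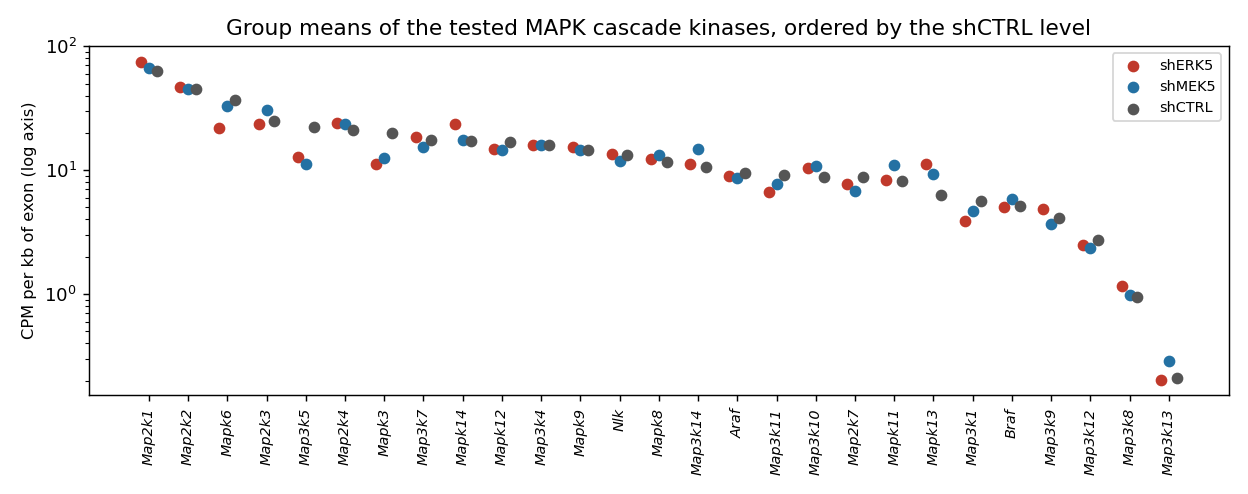
Mean level in CPM per kb of exon (vertical log axis) of the 27 tested kinase genes, ordered from left to right by their shCTRL level, with a point each for shERK5, shMEK5 and shCTRL. Map2k1 is highest at 74.8 in shERK5 against 62.6 in shCTRL, Map3k13 is lowest at 0.204 against 0.211, and Map3k5 and Mapk3 show the widest gaps below shCTRL.

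In the ERK1/2 arm, the gene of the terminal kinase fell in both knockdowns while the kinases above it mostly stayed within the spread between libraries. Mapk3 (Entrez Gene 26417; chromosome 7, 126759626 to 126765816, GRCm38) encodes ERK1. Mapk3 was at 21.1, 24.0 and 22.3 CPM in the shERK5 libraries, 24.2 and 26.6 CPM in the shMEK5 libraries, and 43.9, 40.9 and 34.5 CPM in the shCTRL libraries. All 5 knockdown libraries lay below the lowest shCTRL library. The log2 fold change of Mapk3 was -0.79 (SE 0.09, adjusted p = 2.94e-05) in shERK5 and -0.62 (SE 0.10, adjusted p = 0.000544) in shMEK5. The mean was 56.5% of shCTRL in shERK5 and 63.9% in shMEK5. Between shERK5 and shMEK5 it differed by -0.17 (SE 0.10, adjusted p = 0.202), with an interval from -0.39 to 0.05. Both falls against shCTRL passed the test under all alternatives tried.

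One step up, Map2k1 (Entrez Gene 26395; chromosome 9, 64185769 to 64253605) encodes MEK1, which phosphorylates ERK1. Map2k1 rose in shERK5, at 178, 183 and 186 CPM, against 149.5, 155 and 152 CPM in shCTRL, with 167 and 159 CPM in shMEK5. The 3 groups did not overlap, and shMEK5 lay between the others. The log2 fold change in shERK5 was 0.26 (SE 0.04, adjusted p = 0.000507); in shMEK5 it was 0.09 (SE 0.05, adjusted p = 0.134). The difference between shERK5 and shMEK5 was 0.16 (SE 0.05, adjusted p = 0.0233), and it was no longer called without replicate 2 of shMEK5 (0.12, adjusted p = 0.175), replicate 2 of shERK5 (0.16, adjusted p = 0.0575) or replicate 3 of shERK5 (0.15, adjusted p = 0.0869). Map2k2, the MEK2 gene, had a log2 fold change of 0.05 in shERK5 (interval -0.09 to 0.19) and -0.01 in shMEK5 (interval -0.16 to 0.15).

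The MAP3K genes of this arm, Araf, Braf and Map3k8, did not pass the limma test in either knockdown with all libraries. Araf, the gene of the RAF kinase A-RAF, had a log2 fold change of -0.08 in shERK5 (adjusted p = 0.192) and -0.13 in shMEK5 (adjusted p = 0.0828). Braf, the gene of the RAF kinase B-RAF, was at 58.5, 44.2 and 43.2 CPM in shERK5, 60.8 and 53.7 CPM in shMEK5, and 52.2, 45.8 and 51.7 CPM in shCTRL. In shERK5, replicate 1 stood above the other libraries of its group. Without that library, Braf was called in shERK5 against shCTRL (-0.19, adjusted p = 0.0470), in shERK5 against shMEK5 (-0.38, adjusted p = 0.00345) and, through the smaller pooled spread, in shMEK5 against shCTRL (0.19, adjusted p = 0.0479). Map3k8, the gene of TPL2, a MAP3K that activates MEK1 and MEK2 in inflammatory signalling, was low, at 2.77, 3.32 and 2.92 CPM in shERK5, 2.39 and 2.67 CPM in shMEK5, and 3.04, 2.06 and 2.19 CPM in shCTRL. In shERK5 Map3k8 stood at 0.23 on the log2 scale (SE 0.11, adjusted p = 0.0921), and it was called without replicate 1 of shCTRL (0.36, adjusted p = 0.0102).

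Among the stress MAP3Ks, the greatest fall of all 27 genes was that of Map3k5 (Entrez Gene 26408; chromosome 10, 19934101 to 20142750), the gene of ASK1, which answers oxidative stress and feeds both JNK and p38. Map3k5 was at 66.1, 75.1 and 67.4 CPM in shERK5, 60.4 and 61.8 CPM in shMEK5, and 139.7, 117 and 109 CPM in shCTRL. Every knockdown library was below every shCTRL library. The log2 fold change was -0.80 (SE 0.09, adjusted p = 3.58e-05) in shERK5 and -0.98 (SE 0.10, adjusted p = 3.86e-05) in shMEK5. The mean was 57.0% of shCTRL in shERK5 and 50.1% in shMEK5. Both passed under all alternatives tried. Between shERK5 and shMEK5 the difference was 0.18 (SE 0.10, adjusted p = 0.164), called without replicate 1 of shCTRL (adjusted p = 0.0449).

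Map3k1, the gene of MEKK1, a MAP3K of the JNK chain that also carries a ubiquitin ligase domain, fell as well. It was at 24.3, 28.3 and 28.8 CPM in shERK5, 33.2 and 31.6 CPM in shMEK5, and 43.1, 36.7 and 38.9 CPM in shCTRL, with no overlap between any of the groups. In shERK5 the log2 fold change was -0.53 (SE 0.08, adjusted p = 0.000209). In shMEK5 it was -0.28 (SE 0.09, adjusted p = 0.0244), a call lost without replicate 1 of shCTRL (-0.21, adjusted p = 0.0717), replicate 1 of shMEK5 (-0.31, adjusted p = 0.0622) or replicate 2 of shMEK5 (-0.24, adjusted p = 0.136), and without the expression filter (adjusted p = 0.05004). The shERK5 libraries were lower than the shMEK5 libraries by 0.25 on the log2 scale (adjusted p = 0.0432), which was not called without either shMEK5 library (adjusted p = 0.206 and 0.0953), replicate 3 of shCTRL (0.0639) or replicate 1 of shERK5 (0.0990), nor without the filter (0.0800).

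The genes of the mixed lineage kinases, MAP3Ks that mainly drive JNK, moved in different directions. Map3k11 (MLK3) fell in shERK5, at 25.0, 24.1 and 29.2 CPM, against 33.2, 38.5 and 34.9 CPM in shCTRL; its shMEK5 libraries, at 29.3 and 31.4 CPM, stood between them. On the log2 scale Map3k11 changed by -0.43 in shERK5 (SE 0.08, adjusted p = 0.000904). In shMEK5 it was -0.22 (SE 0.09, adjusted p = 0.0663), and it was called there without replicate 1 of shCTRL (-0.27, adjusted p = 0.0468) or replicate 3 of shERK5 (adjusted p = 0.0413). Map3k9 (MLK1) rose in shERK5, at 22.3, 22.0 and 22.8 CPM, against 19.8, 18.9 and 18.8 CPM in shCTRL, and was at 17.8 and 16.2 CPM in shMEK5. For Map3k9 the log2 fold change in shERK5 was 0.21 (SE 0.06, adjusted p = 0.0102), that in shMEK5 was -0.16 (SE 0.07, adjusted p = 0.0641), and the difference between shERK5 and shMEK5 was 0.38 (SE 0.07, adjusted p = 0.0014). Map3k10 (MLK2) was higher in both, by 0.24 (adjusted p = 0.0424) in shERK5 and 0.28 (adjusted p = 0.0474) in shMEK5. These were weak calls. Without replicate 1 of shCTRL, at 30.1 CPM the lowest library for Map3k10, the values were 0.15 (adjusted p = 0.142) in shERK5 and 0.19 (adjusted p = 0.121) in shMEK5. The shERK5 call of Map3k10 was also lost without replicate 1 of shERK5 (0.21, adjusted p = 0.0988) or replicate 3 (0.21, adjusted p = 0.132), and the shMEK5 call without replicate 1 of shMEK5 (0.17, adjusted p = 0.309) or replicate 3 of shERK5 (adjusted p = 0.0614). Among the other settings, RLE factors (adjusted p = 0.0521), TMM factors (0.05001), no filter (0.0801) and edgeR (0.0507) ended the shERK5 call, and no filter (0.0896) and the stricter filter (0.0513) ended the shMEK5 call. Of the exon bases of Map3k10, 15.7% overlap exons of Ttc9b on the opposite strand, and whether strand was used in counting was not given in the sources used here.

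Map3k7 and Map3k14 set shMEK5 apart. Map3k7 encodes TAK1, the MAP3K that connects TGF-beta and cytokine receptors to p38, JNK and NF-kB. It was at 109.6, 107 and 105 CPM in shERK5, 89.8 and 89.0 CPM in shMEK5, and 102, 98.7 and 101 CPM in shCTRL, so that shMEK5 was lowest without overlap. In shMEK5 the log2 fold change was -0.17 (SE 0.05, adjusted p = 0.0136), not called without replicate 1 of shMEK5 (-0.17, adjusted p = 0.0590) or replicate 2 (-0.16, adjusted p = 0.0809). In shERK5 Map3k7 was at 0.09 (SE 0.04, adjusted p = 0.0777), and the difference between shERK5 and shMEK5 was 0.26 (SE 0.05, adjusted p = 0.00155), called under all alternatives tried. Map3k14 (chromosome 11, 103219764 to 103267401) encodes NIK, the kinase that starts the non-canonical NF-kB pathway. It was at 47.6, 49.2 and 46.4 CPM in shERK5, 60.0 and 65.4 CPM in shMEK5, and 43.4, 47.2 and 44.2 CPM in shCTRL. Map3k14 rose in shMEK5 to 139.5% of the shCTRL mean, a log2 change of 0.47 (SE 0.06, adjusted p = 0.000152). In shERK5 its log2 fold change was 0.09 (SE 0.06, adjusted p = 0.192), with shERK5 lower than shMEK5 by 0.38 (SE 0.06, adjusted p = 0.000746).

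The remaining stress MAP3K genes were not called against shCTRL. Map3k4 (MEKK4, a MAP3K of p38 and JNK) lay between 84.2 and 89.5 CPM in all 8 libraries, with log2 fold changes of 0.00 in shERK5 (interval -0.10 to 0.10) and -0.01 in shMEK5 (interval -0.12 to 0.11). Map3k12 (DLK, a JNK activator best known in neurons) was at -0.11 (adjusted p = 0.272) in shERK5 and -0.20 (adjusted p = 0.101) in shMEK5. Of its exon bases, 27.5% overlap exons of Pcbp2 on the opposite strand. Map3k13 (LZK, a relative of DLK) was low, at 1.55, 1.86 and 1.93 CPM in shERK5, 2.85 and 2.19 CPM in shMEK5, and 1.88, 1.52 and 2.10 CPM in shCTRL. Its log2 fold change in shMEK5, 0.31 (SE 0.12, adjusted p = 0.0587), was called with TMM factors (0.33, adjusted p = 0.0480) and without replicate 3 of shCTRL (0.38, adjusted p = 0.0444), replicate 2 of shMEK5 (0.45, adjusted p = 0.0419) or replicate 1 of shERK5 (adjusted p = 0.0497). The shERK5 libraries were all below the lower shMEK5 library, and the log2 difference was -0.34 (SE 0.12, adjusted p = 0.0515); it was called with RLE factors (-0.35, adjusted p = 0.0429), TMM factors (-0.35, adjusted p = 0.0427) and edgeR (-0.52, adjusted p = 0.0449), and without replicate 2 of shCTRL (adjusted p = 0.0455) or of shMEK5 (-0.47, adjusted p = 0.0379).

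**Figure D3:**
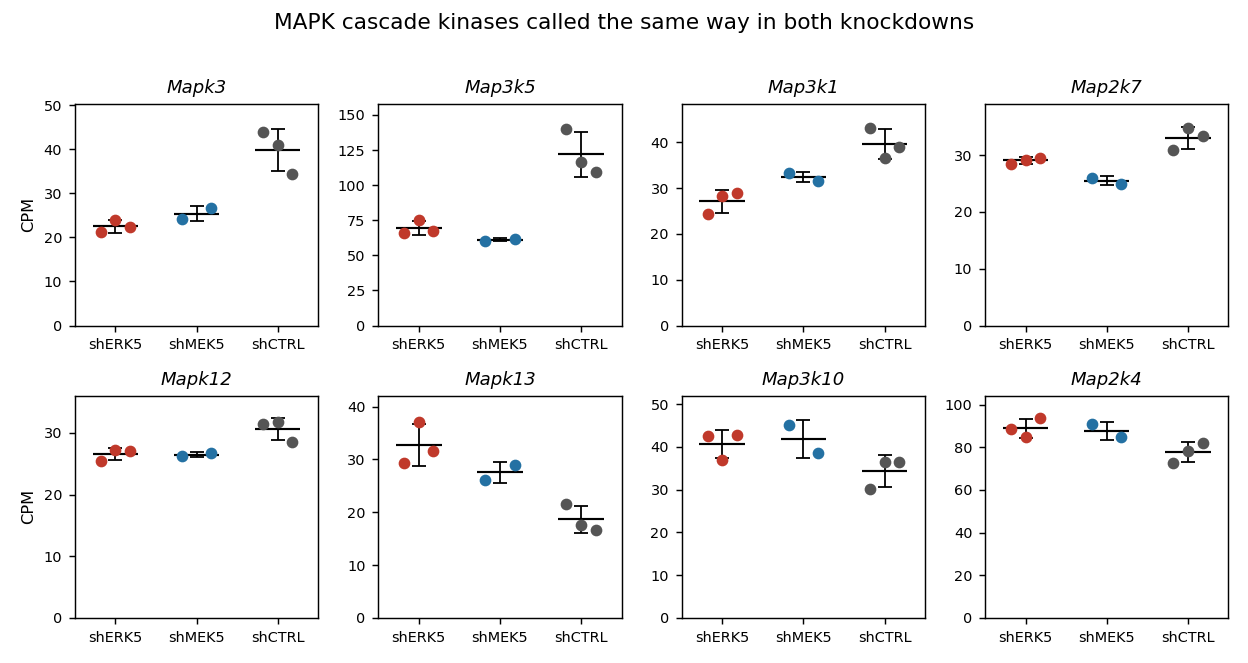
CPM (vertical axes, each from 0) of the kinase genes called in the same direction in shERK5 and shMEK5 against shCTRL, which share their controls; points are libraries, horizontal lines group means and error bars the SD (n = 3, 2 and 3). Mapk3, Map3k5, Map3k1, Map2k7 and Mapk12 are below shCTRL in every knockdown library, Mapk13, Map3k10 and Map2k4 are above it, and Map3k5 has the widest gap, at 60.4 to 75.1 CPM against 109 to 139.7 CPM.

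In the JNK arm, the genes of the MAP2Ks moved apart and those of the JNKs moved little. Map2k4 encodes MKK4, which phosphorylates JNK and can also act on p38, and Map2k7 encodes MKK7, which is specific to JNK. Map2k4 was at 88.5, 84.8 and 93.6 CPM in shERK5, 90.8 and 84.8 CPM in shMEK5, and 72.7, 78.1 and 82.1 CPM in shCTRL. On the log2 scale the rise was 0.19 (SE 0.06, adjusted p = 0.0148) in shERK5 and 0.18 (SE 0.07, adjusted p = 0.0482) in shMEK5. The shERK5 call of Map2k4 was lost without replicate 1 of shCTRL (0.15, adjusted p = 0.0517) or replicate 3 of shERK5 (0.16, adjusted p = 0.0697). The shMEK5 call was lost without replicate 1 of shCTRL (0.13, adjusted p = 0.128) or replicate 2 (0.18, adjusted p = 0.0839), either shMEK5 replicate (0.13 and 0.22, adjusted p = 0.267 and 0.0678), replicate 3 of shERK5 (adjusted p = 0.0551) or the filter (adjusted p = 0.0800).

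Map2k7 fell, at 28.5, 29.2 and 29.5 CPM in shERK5, 26.0 and 24.9 CPM in shMEK5, and 30.8, 34.8 and 33.4 CPM in shCTRL. On the log2 scale the change was -0.36 (SE 0.07, adjusted p = 0.00128) in shMEK5, called under all alternatives tried. In shERK5 it was -0.18 (SE 0.06, adjusted p = 0.0228), lost without replicate 2 of shCTRL (-0.14, adjusted p = 0.0897) or 3 (-0.17, adjusted p = 0.0667) or replicate 1 of shERK5 (-0.16, adjusted p = 0.0569). The difference between shERK5 and shMEK5, 0.18 (adjusted p = 0.0480), was not called with RLE factors (0.16, adjusted p = 0.0719), TMM factors (0.16, adjusted p = 0.0805), edgeR (0.17, adjusted p = 0.0820), DESeq2 (0.17, adjusted p = 0.102) or no filter (adjusted p = 0.0609). Nor was it called without either shMEK5 library (0.21 and 0.15, adjusted p = 0.105 and 0.218), any shERK5 library (adjusted p between 0.0539 and 0.122), or replicate 2 of shCTRL or 3 (adjusted p = 0.0502 and 0.0677). Of the exon bases of Map2k7, 35.8% are shared with Gm49320 on the same strand, so its reads may be split with that gene. Per length, Map2k4 made up 74.8% to 76.4% of the summed level of this MAP2K pair in the shERK5 libraries, 77.7% to 78.1% in the shMEK5 libraries and 69.6% to 71.5% in the shCTRL libraries.

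Of the JNK genes, Mapk8 (JNK1) was at 72.3, 73.3 and 69.9 CPM in shERK5, 76.2 and 77.5 CPM in shMEK5, and 69.4, 65.1 and 67.6 CPM in shCTRL. Both knockdowns lay above shCTRL in every library. Mapk8 rose in shMEK5, where the log2 change was 0.19 (SE 0.05, adjusted p = 0.0119), a call lost without replicate 2 of shMEK5 (0.18, adjusted p = 0.0789), and was at 0.09 (SE 0.05, adjusted p = 0.101) in shERK5. Mapk9 (JNK2) was between 66.6 and 75.2 CPM throughout, with log2 fold changes of 0.09 in shERK5 (interval -0.02 to 0.19) and -0.01 in shMEK5 (interval -0.13 to 0.10). Mapk10 (JNK3, found mainly in brain and heart) had 7 reads in all of shERK5, 11 in shMEK5 and 15 in shCTRL, summed over libraries, and was not tested.

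The p38 arm held the greatest rise and 4 MAPK genes that each behaved differently. Mapk13 (Entrez Gene 26415; chromosome 17, 28769286 to 28778704) encodes p38 delta, a form found mainly in epithelia. It was at 29.3, 37.2 and 31.7 CPM in shERK5, 26.1 and 28.9 CPM in shMEK5, and 21.6, 17.6 and 16.7 CPM in shCTRL. Every knockdown library was above every shCTRL library. The log2 fold change was 0.78 (SE 0.11, adjusted p = 0.000189) in shERK5, called under all alternatives tried, and 0.54 (SE 0.12, adjusted p = 0.00482) in shMEK5, not called without replicate 2 of shMEK5 (0.47, adjusted p = 0.0508). The mean was 175.4% of shCTRL in shERK5 and 147.6% in shMEK5, and between shERK5 and shMEK5 the difference was 0.24 (SE 0.12, adjusted p = 0.153).

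Mapk14 (Entrez Gene 26416; chromosome 17, 28691342 to 28748405) encodes p38 alpha, the widely expressed form. Mapk14 rose in shERK5, at 88.1, 108 and 99.3 CPM, with 71.6 and 76.4 CPM in shMEK5 and 79.9, 68.1 and 67.6 CPM in shCTRL. The shMEK5 libraries lay within the range of shCTRL. Its log2 fold change was 0.45 (SE 0.09, adjusted p = 0.00127) in shERK5 and 0.04 (SE 0.10, adjusted p = 0.723) in shMEK5. The difference between shERK5 and shMEK5 was 0.41 (SE 0.10, adjusted p = 0.00796), not called without replicate 1 of shMEK5 (0.36, adjusted p = 0.0728).

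Mapk11 (p38 beta) was higher in the other knockdown. It was at 20.5, 20.7 and 20.9 CPM in shERK5, 26.2 and 28.1 CPM in shMEK5, and 20.5, 20.2 and 20.0 CPM in shCTRL, so that shMEK5 alone stood apart. Its log2 fold change was 0.40 (SE 0.06, adjusted p = 0.000404) in shMEK5 and 0.03 (SE 0.06, adjusted p = 0.671) in shERK5, and shERK5 was lower than shMEK5 by 0.38 (SE 0.06, adjusted p = 0.000841). Mapk12 (p38 gamma), best known in skeletal muscle, was slightly lower in both knockdowns, at 25.5, 27.3 and 27.0 CPM in shERK5, 26.2 and 26.8 CPM in shMEK5, and 31.5, 31.8 and 28.6 CPM in shCTRL. Its log2 fold changes were -0.20 (adjusted p = 0.0155) in shERK5 and -0.20 (adjusted p = 0.0295) in shMEK5. The first was lost without replicate 2 of shCTRL (-0.17, adjusted p = 0.0593), and the second without replicate 1 of shCTRL (-0.18, adjusted p = 0.0718) or 2 (-0.17, adjusted p = 0.0875) or either shMEK5 replicate (-0.19 and -0.22, adjusted p = 0.134 and 0.0906).

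**Figure D4:**
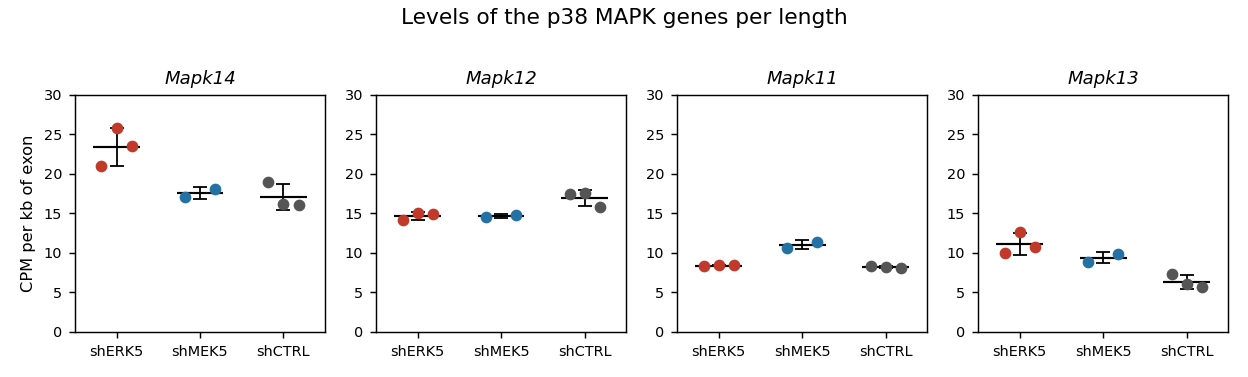
CPM per kb of exon (vertical axes, all from 0 to 30) of the p38 MAPK genes in every library; lines are group means and error bars the SD (n = 3 shERK5, 2 shMEK5 and 3 shCTRL). Mapk14 is high in shERK5, at a mean of 23.4 against 17.1 in shCTRL, Mapk11 in shMEK5, at 11.0 against 8.23, and Mapk13 in both knockdowns, at 11.1 and 9.38 against 6.35.

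The makeup of the p38 family shifted with these changes. Per length, Mapk13 made up 18.7% to 20.4% of the summed p38 level in the shERK5 libraries, 17.4% to 18.2% in the shMEK5 libraries and 12.4% to 14.1% in the shCTRL libraries. Mapk14 took 39.2% to 41.6% in shERK5, 33.3% to 33.5% in shMEK5 and 33.7% to 36.4% in shCTRL. Mapk12 took 24.4% to 26.5% in shERK5, 27.3% to 28.4% in shMEK5 and 33.4% to 36.6% in shCTRL, so its share in the controls was close to that of Mapk14 and its share in shERK5 was not. These shares are descriptions without a test. The genes lie in neighbouring pairs: Mapk14 and Mapk13 are 20.9 kb apart on chromosome 17, and 904 bases lie between Mapk12 and Mapk11 on chromosome 15. In shERK5 both genes of the first pair rose, Mapk14 by 0.45 and Mapk13 by 0.78 on the log2 scale, with Mapk11 at 0.03 and Mapk12 at -0.20. In shMEK5 Mapk13 was at 0.54 and its neighbour Mapk14 at 0.04, and Mapk11 was at 0.40 and its neighbour Mapk12 at -0.20.

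The promoters of Mapk14, Mapk13 and Mapk11 are shown because they belong to the p38 genes that rose: Mapk14 in shERK5, Mapk13 in both knockdowns and Mapk11 in shMEK5. The bases before the start of each gene are from RefSeq (GRCm38.p6), 5′ to 3′ on the strand of the gene, with motif matches in capitals. They are chr17:28691092-28691341 on the plus strand for Mapk14, chr17:28769067-28769285 on the plus strand for Mapk13 and chr15:89149607-89149856 on the minus strand for Mapk11. The motifs searched on both strands were AP-1 (TGANTCA), CRE (TGACGTCA), the GC box (GGGCGG), an E-box (CAGGTG) and MEF2, the factor family that ERK5 phosphorylates. The 1 match in the Mapk14 stretch shown and the 4 in Mapk11 are GC boxes. Another RefSeq window of Mapk14, chr17:28692318-28692567, is not shown. It holds 0 GC boxes and 0 matches to the other motifs, and G and C make up 48.4% of it. Mapk13 holds 3 GC boxes and 2 E-boxes, and 0 matches overlap each other. Over 32851 promoter windows of 250 bases, 32.7% hold a GC box, 17.2% this E-box, 6.75% AP-1, 1.55% CRE and 2.92% MEF2. The Mapk13 stretch is 219 bases long, shorter than those windows. G and C made up 70.4% of the stretch for Mapk14, 74.4% for Mapk13 and 68.0% for Mapk11. Over all windows they made up 53.2%. GC boxes were not particular to genes that rose. Among genes that fell, they stood in windows of Map3k1, Map3k5, Map3k7, Mapk6, Mapk12 and Nlk, but not of Map3k11 or Map2k7. Mapk3, which also fell, had no matched window and could not be searched. The matches are descriptions and show no binding.
Mapk14: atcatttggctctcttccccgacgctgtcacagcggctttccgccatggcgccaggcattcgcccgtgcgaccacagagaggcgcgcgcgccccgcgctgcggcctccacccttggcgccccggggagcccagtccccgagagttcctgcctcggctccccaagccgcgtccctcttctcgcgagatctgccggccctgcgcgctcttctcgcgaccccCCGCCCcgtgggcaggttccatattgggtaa
Mapk13: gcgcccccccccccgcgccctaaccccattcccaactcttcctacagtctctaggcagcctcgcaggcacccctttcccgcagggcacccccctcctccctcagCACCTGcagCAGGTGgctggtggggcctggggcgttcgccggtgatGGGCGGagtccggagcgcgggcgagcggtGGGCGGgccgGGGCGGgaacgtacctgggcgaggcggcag
Mapk11: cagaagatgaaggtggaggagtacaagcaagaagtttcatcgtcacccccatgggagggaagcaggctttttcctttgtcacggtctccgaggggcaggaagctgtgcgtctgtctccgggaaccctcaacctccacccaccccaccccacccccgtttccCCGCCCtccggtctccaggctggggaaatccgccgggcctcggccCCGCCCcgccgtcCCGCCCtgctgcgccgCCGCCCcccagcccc

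Of the genes upstream of p38, Map2k3 (MKK3, a MAP2K specific to p38) varied most between replicates. Map2k3 was at 43.0, 62.9 and 49.4 CPM in shERK5, 62.2 and 71.2 CPM in shMEK5, and 63.6, 50.6 and 50.4 CPM in shCTRL, with overlap between all groups. Its log2 fold change was -0.09 (SE 0.14, adjusted p = 0.605) in shERK5 and 0.28 (SE 0.16, adjusted p = 0.184) in shMEK5. The difference between shERK5 and shMEK5, -0.37 (SE 0.16, adjusted p = 0.104), was called with DESeq2 (-0.39, adjusted p = 0.0258) and without replicate 2 of shERK5 (-0.52, adjusted p = 0.0139). Map2k6 (MKK6, the other MAP2K specific to p38) had 3 reads in shERK5, 3 in shMEK5 and 5 in shCTRL, summed over libraries, which leaves Map2k3 as the one of the pair detected above the filter.

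Among the atypical MAPKs, Mapk6 (Entrez Gene 50772; chromosome 9, 75386782 to 75410016), the gene of ERK3, fell in shERK5. It was at 82.9, 108 and 85.2 CPM in shERK5, 137 and 144 CPM in shMEK5, and 189, 136 and 141 CPM in shCTRL. The shERK5 libraries were all below the others, and replicate 1 of shCTRL stood above its group. The log2 fold change was -0.74 (SE 0.14, adjusted p = 0.00216) in shERK5, or 59.4% of the shCTRL mean, and -0.13 (SE 0.16, adjusted p = 0.537) in shMEK5. The shERK5 call held under all alternatives tried, that without replicate 1 of shCTRL included. Between shERK5 and shMEK5 the difference was -0.61 (SE 0.16, adjusted p = 0.0162), not called without either shMEK5 replicate (-0.65 and -0.58, adjusted p = 0.0788 and 0.0954).

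Nlk, the gene of Nemo-like kinase, a regulator of Wnt signalling, was at 57.1, 61.2 and 61.8 CPM in shERK5, 53.3 and 52.3 CPM in shMEK5, and 59.1, 56.3 and 61.6 CPM in shCTRL. For Nlk it was -0.16 on the log2 scale (SE 0.06, adjusted p = 0.0482) in shMEK5 and 0.03 (SE 0.05, adjusted p = 0.699) in shERK5, with a difference between shERK5 and shMEK5 of 0.18 (SE 0.06, adjusted p = 0.0319). The shMEK5 call of Nlk was lost in most alternatives, among them RLE factors (-0.14, adjusted p = 0.0542), TMM factors (-0.14, adjusted p = 0.0710), edgeR (-0.14, adjusted p = 0.0711), DESeq2 (-0.14, adjusted p = 0.0813) and no filter (adjusted p = 0.0651). It was also lost without replicate 1 of shCTRL or 3, either shMEK5 replicate, or replicate 2 of shERK5 or 3 (-0.17 to -0.13, adjusted p between 0.0579 and 0.193). The difference was lost with DESeq2 (adjusted p = 0.0524) and without either shMEK5 replicate or replicate 2 of shERK5 or 3 (0.16 to 0.20, adjusted p between 0.0820 and 0.143). Mapk4, the gene of ERK4, had 0 reads in all 8 libraries; in the shallowest of them this allows a level of up to 0.0725 CPM. Mapk15, the gene of ERK8, had a summed 7 reads in shERK5, 7 in shMEK5 and 3 in shCTRL. These limits cover counting error only.

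Set against each other, shERK5 and shMEK5 differed in 10 of the 27 kinase genes, or 37.0% beside 39.4% of all genes tested, of which 22% were higher and 17.4% lower in shERK5. Their libraries did not overlap in 18 of the 27, beside 61% of all genes. Higher in shERK5 were Map2k1, Mapk14, Map3k9, Map3k7, Map2k7 and Nlk, and lower were Mapk6, Map3k14, Mapk11 and Map3k1. The calls of Map3k9, Map3k7, Map3k14 and Mapk11 held under all alternatives tried, and each of the other 6 was lost in at least 1. The comparisons of shERK5 and shMEK5 with shCTRL share the 3 control libraries, so no overlap is counted between them. Some genes were called against shCTRL in 1 knockdown and not in the other. They were Map2k1, Map3k9 and Mapk14 upwards and Map3k11 and Mapk6 downwards in shERK5, and Map3k14, Mapk8 and Mapk11 upwards and Map3k7 and Nlk downwards in shMEK5. Of these, Map3k11 and Mapk8 were not called between the knockdowns, at -0.21 (adjusted p = 0.0865) and -0.10 (adjusted p = 0.166). Without replicate 3 of shERK5, Map3k11 was called there (-0.29, adjusted p = 0.0271).

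**Figure D5:**
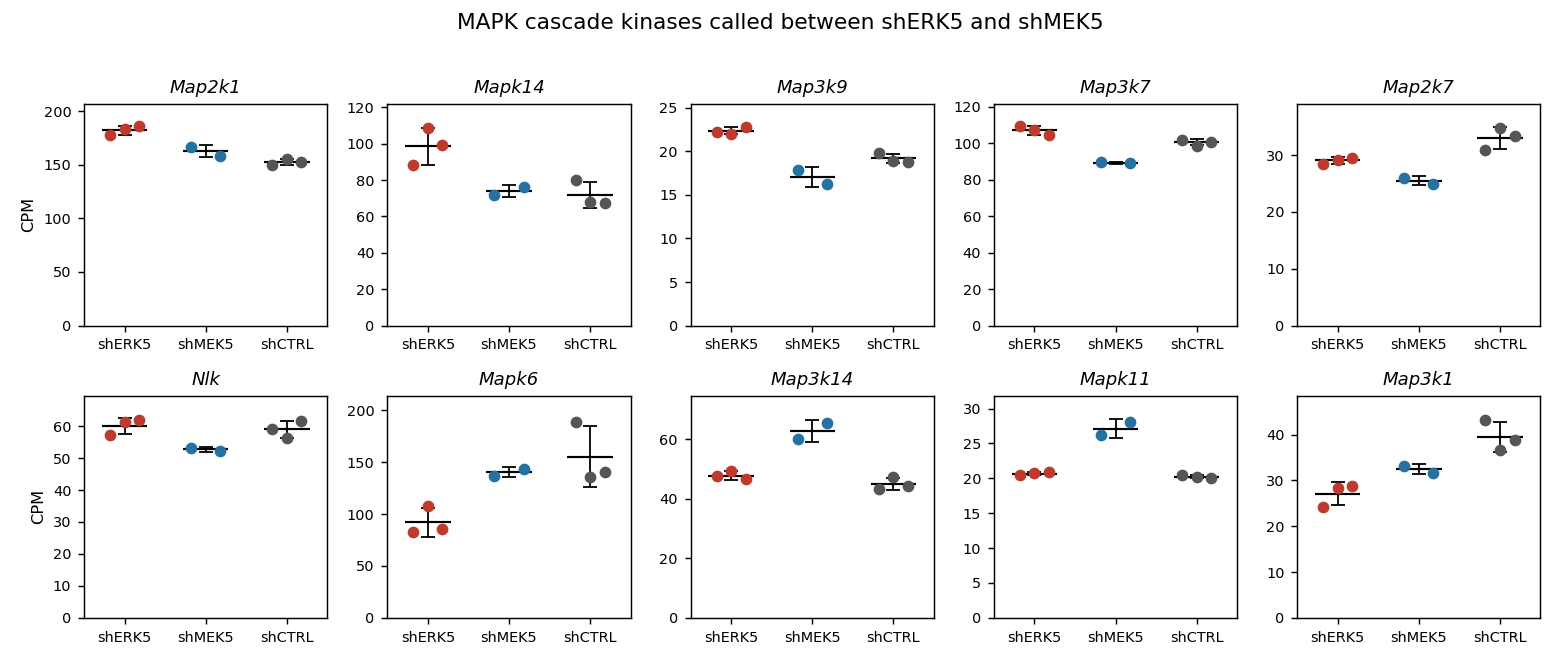
CPM (vertical axes, each from 0) of the 10 kinase genes called between shERK5 and shMEK5; points are libraries, horizontal lines group means and error bars the SD (n = 3 shERK5, 2 shMEK5 and 3 shCTRL). In Map3k14 and Mapk11 the shMEK5 libraries stand above both other groups, at 60.0 and 65.4 CPM and at 26.2 and 28.1 CPM, while in Mapk6 and Mapk14 the shERK5 libraries stand apart.

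Around the cascades, a list of 49 other MAPK pathway genes was examined, made up of 11 downstream kinases, 18 scaffolds and adaptors and 20 upstream kinases and RAS genes. The list was chosen with earlier results of these data known, so its shares beside those of all genes are descriptions only. Of the 44 tested, 34 changed in shERK5, 11 upwards and 23 downwards, which is 77.3% beside 63.3% of all genes. In shMEK5, 27 of 44 changed, 8 upwards and 19 downwards, or 61.4% beside 48.7%. The median log2 fold change of the 44 was -0.14 in shERK5 and -0.16 in shMEK5, beside 0.00 and -0.02 over all genes. Among the 11 downstream kinases, which ERK1/2 or p38 activate, 2 rose and 6 fell in shERK5, and 1 rose and 7 fell in shMEK5. Of the 15 tested scaffolds and adaptors, 5 rose and 5 fell in shERK5 and 4 rose and 5 fell in shMEK5. In the upstream group, 4 of 18 rose and 12 fell in shERK5, and 3 rose and 7 fell in shMEK5.

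By the naming rule, the shERK5 genes of that list with the lowest adjusted p were Tab2, Rps6ka5, Map3k6 and Mknk2. Tab2, an adaptor that connects TAK1 to ubiquitin chains, was at 40.0, 38.8 and 38.7 CPM in shERK5, 70.0 and 68.2 CPM in shMEK5, and 85.8, 75.8 and 80.0 CPM in shCTRL (log2 fold change -1.02 in shERK5 and -0.22 in shMEK5, adjusted p = 2.23e-07 and 0.0127). Rps6ka5, the gene of the nuclear kinase MSK1, was at 12.2, 10.9 and 11.3 CPM in shERK5, 24.8 and 21.6 CPM in shMEK5, and 39.3, 34.3 and 31.5 CPM in shCTRL (-1.53 in shERK5 and -0.57 in shMEK5, adjusted p = 3.55e-07 and 0.000874). In both genes the shMEK5 libraries lay between the other groups. Map3k6, a relative of ASK1, was at 4.75, 4.70 and 4.63 CPM in shERK5, 4.78 and 4.06 CPM in shMEK5, and 9.30, 10.2 and 9.24 CPM in shCTRL (-0.89 in shERK5 and -0.97 in shMEK5, adjusted p = 5.54e-06 and 1.45e-05). Mknk2, the gene of MNK2, which phosphorylates the translation factor eIF4E, fell in both (-0.54 in shERK5 and -0.68 in shMEK5, adjusted p = 8.42e-06 and 8.62e-06). In shMEK5 the lowest adjusted p-values were those of Map4k4, Mknk2, Map3k6 and Shoc2. Map4k4, an upstream kinase of the JNK chain, was at 654, 664 and 671 CPM in shERK5, 492 and 489 CPM in shMEK5, and 714, 699 and 711 CPM in shCTRL. Map4k4 had a log2 fold change of -0.53 (adjusted p = 5.86e-06) in shMEK5 and -0.09 (adjusted p = 0.0469) in shERK5. Shoc2, a scaffold that promotes RAF activation, was at 73.1, 67.6 and 66.3 CPM in shERK5, 57.9 and 56.5 CPM in shMEK5, and 97.2, 84.5 and 91.9 CPM in shCTRL (-0.40 in shERK5 and -0.66 in shMEK5, adjusted p = 0.000241 and 3.14e-05).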

How the data were processed

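The libraries were strand-specific and made from total RNA of 4T1 cells without ribosomal RNA, per the labels' protocols. The submitters' processing notes name STAR and mm10 (GRCm38); neither annotation nor counting program nor use of strand was given in the sources used here. Values were deposited as CPM, which the authors scaled to 1000000 per library. Of the values above 0, 100% matched a whole number of reads within 0.01 read, and these reads were recovered. Groups follow the sample titles. Symbols and coordinates came from RefSeq GRCm38.p6 by Entrez number, and exon lengths from GENCODE M21.

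The main test was limma 3.58.1 with trend and robust moderation on log2(CPM + 1), over all 8 libraries with a mean per group. Genes with at least 1 CPM in at least 2 libraries were tested (11623). Fold changes on this scale understate those of low genes. On simulated data with 11623 genes, 50 genes were changed at each fold tried. Of those changed 1.5-fold, 48 were recovered in shERK5 against shCTRL and in shMEK5 against shCTRL, and 41 in shERK5 against shMEK5. Of those changed 1.25-fold, 26, 15 and 23 were recovered in these comparisons. Far more genes were called in the data, so the adjustment was stricter in the simulation and these rates need not hold for the data. Alternatives were RLE and TMM factors, a pseudocount of 0.25, no filter, a mean of at least 5 CPM, edgeR 4.0.16 (quasi-likelihood) and DESeq2 1.42.0 on the recovered reads, a replicate block, and leaving out each library. With edgeR, 7351 genes were called in shERK5 against shCTRL, 5627 in shMEK5 against shCTRL and 4452 in shERK5 against shMEK5; limma called 7360, 5663 and 4581.

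No pair of replicates was alike enough in a chi-square test of reads to be a duplicate. The members, their arms and the list of other pathway genes were chosen with earlier results of these data known. All 31 members are accounted for; of the other pathway genes, the 4 with the lowest adjusted p among those called in each comparison with shCTRL are named. RefSeq promoter windows matched 27 of the 31.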

Additional observations from a re-analysis of the deposited data

How the results depend on the processing

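Over the alternatives, the number of kinase genes called in shERK5 against shCTRL ranged from 11 to 13 of 27 when a library was left out, around 13 with all libraries. In shMEK5 against shCTRL it ranged from 7 to 15 around 13, and in shERK5 against shMEK5 from 5 to 11 around 10. The lowest counts came without a shMEK5 library, 7 without either replicate against shCTRL, and 5 and 6 without replicates 1 and 2 against shERK5; the lone shMEK5 library is then assumed to vary like the other groups. For the other pathway genes the ranges were 31 to 34, 21 to 31 and 14 to 23 in the same order, and 14 was the count between the knockdowns without shMEK5 replicate 1. Of 1290 single-gene values recomputed, 1188 kept their side of the threshold, 81 were no longer called and 21 became called; no called value changed sign, and 59 uncalled ones did. Of the called genes, 9 of 13 in shERK5, 5 of 13 in shMEK5 and 4 of 10 between the knockdowns held in every alternative. The same-numbered libraries of shERK5 and shCTRL did not deviate together (r = -0.06, -0.19 and 0.17), nor did those of shMEK5 and shCTRL (r = -0.13 and 0.03). Those of shERK5 and shMEK5 did (r = 0.46 and 0.52). With 2 shMEK5 libraries the deviations mirror each other, so r for these is not independent. Over libraries of unlike number r ran from -0.52 to 0.40. These values do not settle whether the numbers mark pairs, and the main fit took none. With the replicate block 12, 12 and 8 kinase genes were called, of which 12, 11 and 7 were among those called without it. Under the block, calls were not made for Map3k1 in shMEK5 (adjusted p = 0.0684) and between the knockdowns (0.0733), Map3k10 in shERK5 (0.0591), Map2k7 between the knockdowns (0.0872), and Nlk in shMEK5 (0.0915) and between the knockdowns (0.0645); Map3k13 was called in shMEK5 (0.36, adjusted p = 0.0387) and between the knockdowns (-0.39, adjusted p = 0.0376). The filter on low values changed which of the lowest genes could be tested, and at this depth the 4 untested members were not detectable above a few reads.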
